A study of Mus musculus with 6 samples.

Results

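The 36 genes described here encode chains of the collagens that are not the hallmark collagens of cartilage. They were taken from the table of counts per gene by name: every protein-coding row named as a collagen chain, less the 8 chains that build cartilage fibrils or mark growing cartilage (Col2a1, Col9a1, Col9a2, Col9a3, Col10a1, Col11a1, Col11a2 and Col27a1). That left 36 of 44 collagen genes, in a table of 43346 genes. The rule used names alone, and some of its members, the type VI chains among them, are also laid down around cartilage cells.

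RNA-seq was carried out on primary mouse adult fibroblasts (MAFs) grown from ear tissue of adult C57BL6/J females, cells that reach the dish from a tissue holding both skin and elastic cartilage. The 3 control samples were sham irradiated. The 3 senescent samples received 20 Gy of X-rays and were kept in culture for 21 days, so dose and time in culture cannot be told apart in them. Both groups were grown at 3% oxygen, were given 100 nM dexamethasone for 2 hours to set their clocks to a common phase, and were collected 12 hours later. Libraries held 50288454 to 82229553 counts on genes. Senescent replicate 3 stood apart from its group. Its median squared difference from the other 2, gene by gene, was 12.9 and 16.2 times that of counting error, against 2.12 times between those 2. Control replicate 1 stood apart by less, at 4.35 and 4.03 times against 1.77 between control replicates 2 and 3. The departure of senescent replicate 3 followed the GC content of the transcripts, with r = -0.76 over the 31 members tested and r = -0.66 over 17412 genes, both across genes that share one library. The 8 members with at least 58% GC lay a median of 0.65 below the other 2 senescent libraries on the log2 scale, a deviation of -0.65, whereas the 7 members under 50% GC had a median of 0.13.

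A collagen is a protein of 3 chains wound into a triple helix, and each gene encodes 1 kind of chain. Fibril-forming collagens (types I, III and V) give skin and tendon their tensile strength. Type IV makes the sheet-like network of basement membranes, type VI makes beaded filaments close to the cell surface, and the fibril-associated collagens with interrupted helices (FACITs) sit on the surface of fibrils. Fibroblasts are the main makers of the fibril-forming and type VI chains in skin, and loss of collagen from skin is a familiar feature of ageing. Levels below are CPM (counts scaled to a common library total) after library scaling by TMM. Fold changes are log2 values, senescent minus control, from edgeR's quasi-likelihood test over 17589 genes, a gene is called at a Benjamini-Hochberg adjusted p under 0.05, and n = 3 in each group throughout.

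The abundant collagens fell in senescent MAFs and several scarce ones rose. Of the 36 members, 31 had enough counts to be tested, and 5 (Col4a3, Col6a6, Col13a1, Col19a1 and Col26a1) did not. Among the 31, 25 were called, 17 lower and 8 higher, and 6 were not. Across all genes tested 70.3% were called, 34.1% lower and 36.2% higher. Past a 2-fold change at an unadjusted p under 0.05 were 13 members lower, against 12.3% of all genes, and 7 higher, against 17.8%. A fall of more than 4-fold was seen in 8 members, against 3.79% of all genes. Of these, Col3a1, Col4a5 and Col16a1 lay near the limit. Their smallest falls over the alternative fits were -1.90, -1.99 and -1.83 on the log2 scale, short of 4-fold. The median log2 fold change was -0.48 over the tested members and 0.01 over all genes. Control and senescent values did not overlap for 26 of the 31, a share to be read against 75.3% over all genes.

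Direction went with the count level (CPM, not divided by length). Of 14 members with a mean of at least 100 CPM, 13 were called lower, 10 were past 2-fold lower and 0 past 2-fold higher; of all genes at that level 9.78% were past 2-fold lower. The 14th was Col8a1, which was not called. Of the 10 tested members with a mean under 10 CPM, 6 were past 2-fold higher, where 31.3% of all such genes were. Some of those 10 entered the test only because senescent libraries held their counts, so that share is a description. Spearman's rho between log2 fold change and mean level was -0.71 over the 31 members, which share the same 6 libraries.

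**Figure D1:**
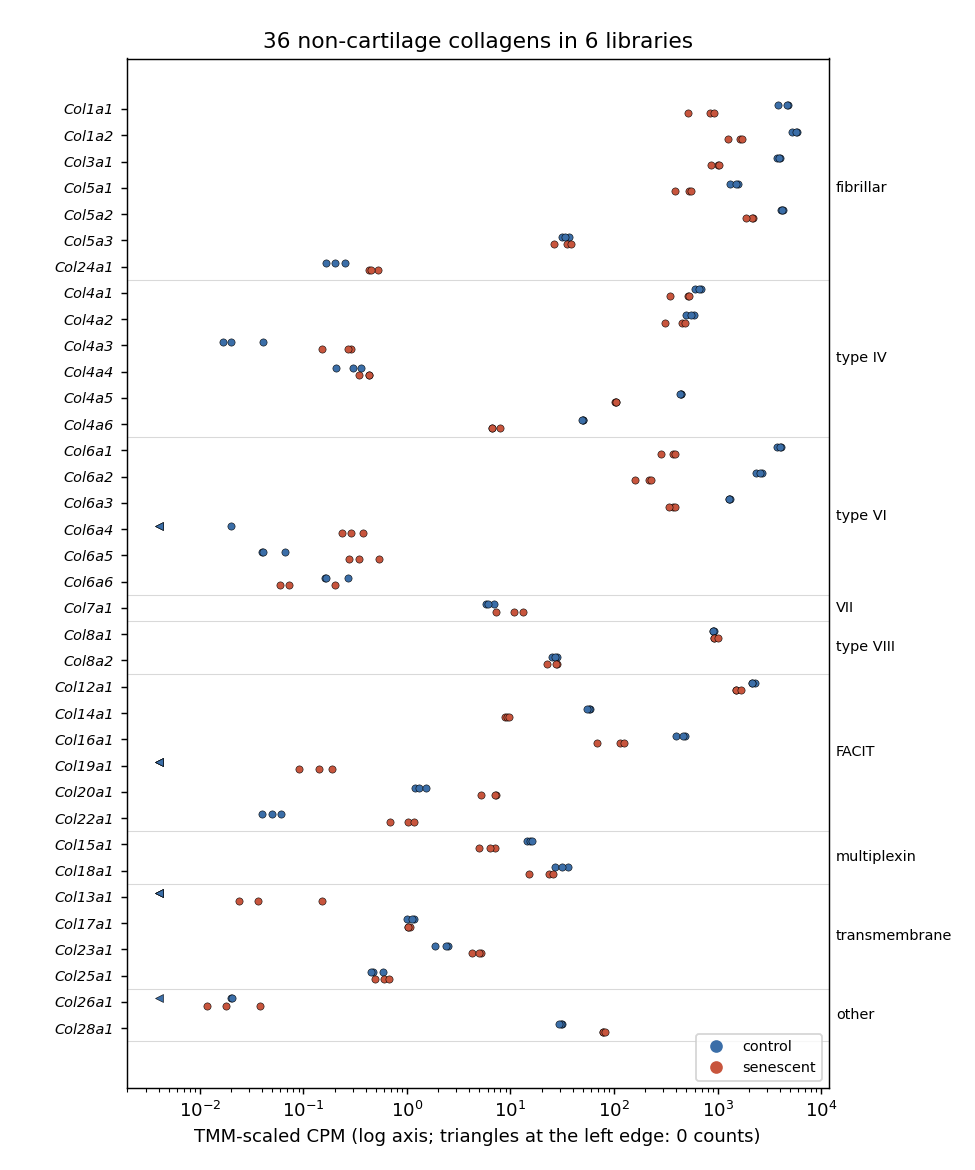
Level of each of the 36 members in each library, as TMM-scaled CPM on a log axis, grouped by collagen class, with control in blue and senescent in red. Triangles at the left edge mark libraries with 0 counts. The red points of Col1a1, Col1a2, Col3a1, Col6a1, Col6a2 and Col6a3 lie to the left of the blue points, those of Col6a4 and Col6a5 lie to the right, and those of Col8a1 lie beside them.

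Type VI collagen gave the largest fall. Its classical filament is built from the chains of Col6a1, Col6a2 and Col6a3, and Col6a1 had the highest level per kilobase of any member in control MAFs, at 898 CPM per kilobase. Col6a1 stood at 3728, 4062 and 4008 CPM in the control libraries and at 373, 384 and 284 CPM in the senescent ones. The groups were far apart, with an 11.3-fold difference in means and a log2 fold change of -3.50 (SE 0.124, adjusted p = 1.82e-07). Col6a2 was at 2342, 2672 and 2582 CPM in control and 218, 227 and 160 CPM in senescent MAFs, a log2 fold change of -3.65 (SE 0.143, adjusted p = 3.11e-07). Col6a3, which encodes the longest of the 3 chains, fell less: from 1288, 1332 and 1287 CPM to 373, 384 and 341 CPM, a log2 fold change of -1.83 (SE 0.063, adjusted p = 1.7e-07). Senescent replicate 3 was the lowest library for all 3 genes, and the control libraries of Col6a3 varied by only 25.8 CPM (SD).

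The other 3 type VI chains, Col6a4, Col6a5 and Col6a6, can take the place of the Col6a3 chain and lie in a row on chromosome 9. They were close to the limit of detection. Col6a4 had 1, 0 and 0 counts in control libraries and 21, 23 and 20 in senescent ones; the ratio of pooled, scaled counts was 46.3 (exact 95% interval 8.02 to 1858, counting error only). Col6a5 had 2, 4 and 2 counts in control and 19, 22 and 45 in senescent libraries, a ratio of 7.78 (3.78 to 18.6). Both were called higher, with adjusted p = 0.00029 and 0.000691 in edgeR's quasi-likelihood test, and both met the filter on low counts through their senescent libraries. Col6a6 went the other way in its mean but overlapped between groups, with 8, 16 and 8 counts in control and 4, 16 and 5 in senescent libraries, and was too low to be tested. Per kilobase, the senescent levels of Col6a4 (0.0354 CPM) and Col6a5 (0.0409 CPM) remained far below that of Col6a1 (79.3 CPM).

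Col6a2 and Col6a1 follow each other on the minus strand of chromosome 10 (mm10, 76595762 to 76623630 and 76708792 to 76726168), 85161 bases apart, and Col6a3 lies on chromosome 1 (90765923 to 90843971). The bases just before these genes are shown because the 3 genes fell together while Col6a5, a member of the same family, rose from almost nothing. Each stretch is the 120 bases that end where the gene begins in the count table, read 5′ to 3′ on the gene's strand, from RefSeq windows of the GRCm38.p6 build, which has the coordinates of mm10. No capitals are used because neither motif searched occurs in these stretches.
Col6a1 (chr10:76726169-76726288, minus strand): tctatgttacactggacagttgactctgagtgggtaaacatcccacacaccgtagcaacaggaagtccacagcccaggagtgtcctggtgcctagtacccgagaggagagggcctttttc
Col6a2 (chr10:76623631-76623750, minus strand): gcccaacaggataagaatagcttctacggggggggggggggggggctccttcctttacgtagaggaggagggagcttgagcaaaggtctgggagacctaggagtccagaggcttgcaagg
Col6a3 (chr1:90843972-90844091, minus strand): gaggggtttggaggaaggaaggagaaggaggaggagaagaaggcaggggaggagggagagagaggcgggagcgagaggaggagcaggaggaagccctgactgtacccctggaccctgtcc
Col6a5 (chr9:105960644-105960763, minus strand): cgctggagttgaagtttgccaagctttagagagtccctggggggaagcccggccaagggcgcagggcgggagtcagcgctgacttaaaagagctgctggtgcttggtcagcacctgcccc

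The GC content of these stretches was 53.3% for Col6a1, 60.0% for Col6a2, 63.3% for Col6a3 and 62.5% for Col6a5, with 2, 2, 2 and 5 CpG dinucleotides. Windows of 300 bases (250 before and 50 after a RefSeq start) were on hand for 29 of the 36 members, 31 windows in all. They were searched on both strands for the AP-1 site (TGACTCA, or TGAGTCA on the other strand) and for the E-box that clock factors bind (CACGTG, its own reverse complement), because the study is about a clock factor at AP-1 sites. An AP-1 match occurred in 1 member window (3.23%, against 5.2% of 32851 windows of all genes) and an E-box in 0 (against 7.15%). The AP-1 match was in Col6a1, at chr10:76726128-76726134. It begins 90 bases before the RefSeq start but 35 bases into the gene as the count table draws it, so it lies within the gene in that annotation. It is shown in capitals within 30 bases (chr10:76726116-76726145, minus strand).
Col6a1 AP-1 match: tgctgatgctgTGACTCActcagctttgag
These are letters in a window, and binding was not measured here.

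Most of the fibril-forming chains fell as well. Col1a1 and Col1a2 encode the chains of type I collagen, the bulk of skin collagen, in which a molecule usually holds a pair of Col1a1 chains and a single Col1a2 chain. Col1a1 was at 3853, 4814 and 4638 CPM in control and 843, 924 and 523 CPM in senescent libraries, with a log2 fold change of -2.54 (SE 0.208, adjusted p = 1.79e-05). Senescent replicate 3 was the lowest; without it the log2 fold change was -2.32. Col1a2 was at 5232, 5827 and 5778 CPM in control and 1632, 1703 and 1258 CPM in senescent libraries, a log2 fold change of -1.87 (SE 0.117, adjusted p = 3.86e-06). Both type I genes therefore kept a clear gap between the groups, and Col1a1 fell further.

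Col3a1, which encodes the single chain of type III collagen, was at 3775, 4004 and 3909 CPM in control and 1011, 1038 and 865 CPM in senescent libraries, a log2 fold change of -2.004 (SE 0.080, adjusted p = 3.37e-07). Its neighbour Col5a2 lies 24614 bases away on chromosome 1, end to end on the opposite strand, and encodes a chain of type V collagen, which starts fibrils and limits their width. Col5a2 was at 4118, 4279 and 4205 CPM in control and 2176, 2145 and 1864 CPM in senescent libraries, a log2 fold change of -1.03 (SE 0.070, adjusted p = 6.43e-06). Of the fibril-forming members called lower, Col5a2 changed least, and it lay at the edge of a 2-fold change: the value was -0.95 without senescent replicate 3, -0.95 with scaling by library size alone and -0.98 with at least 10 counts required in every library. Its partner Col5a1 was at 1329, 1565 and 1504 CPM in control and 531, 560 and 389 CPM in senescent libraries (log2 fold change -1.57, SE 0.138, adjusted p = 2.68e-05).

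The remaining pair of fibril-forming genes were far lower in level. Col5a3, an alternative chain of type V, was not called: 31.5, 36.8 and 33.7 CPM in control overlapped with 35.5, 38.6 and 26.1 CPM in senescent libraries (log2 fold change -0.03, 95% interval -0.36 to 0.30, adjusted p = 0.873). Its transcript has 61.6% GC, and with the GC trend taken out of each library, an adjustment added after seeing the data, its value was 0.29 (adjusted p = 0.000189). Col24a1, a minor fibril-forming chain, was called higher at low counts: 10, 15 and 8 counts in control and 24, 42 and 38 in senescent libraries (log2 fold change 1.18, SE 0.254, adjusted p = 0.00334).

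**Figure D2:**
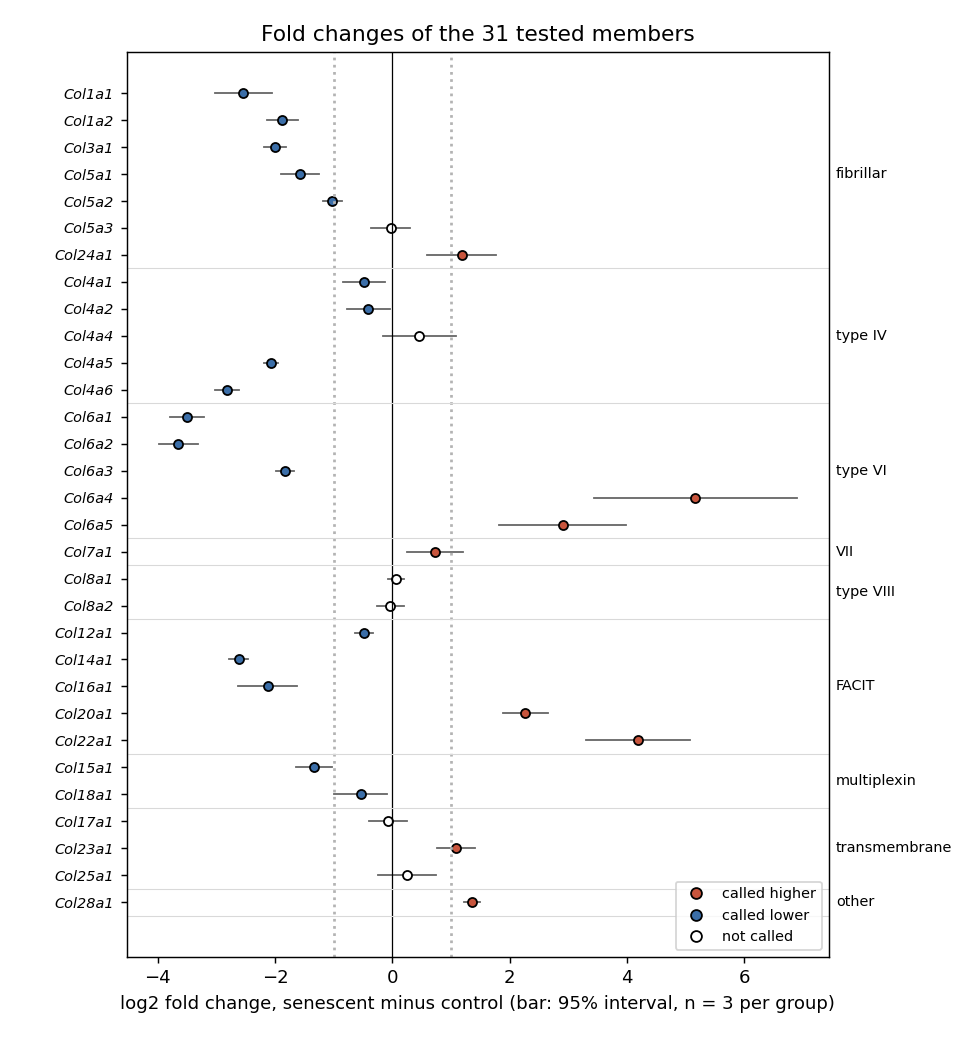
Log2 fold change (senescent minus control) of the 31 tested members with 95% intervals from edgeR's quasi-likelihood test, 3 libraries per group. Dotted lines mark a 2-fold change, and colour marks the call. Col6a1 and Col6a2 lie furthest to the left, at -3.50 and -3.65, and the widest intervals on the right belong to Col6a4, Col6a5 and Col22a1, which had 1 to 8 control counts in total.

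Type IV chains split by pair. Each pair of type IV genes lies head to head on 1 chromosome: Col4a1 with Col4a2 on chromosome 8, Col4a3 with Col4a4 on chromosome 1, and Col4a5 with Col4a6 on chromosome X. Col4a1 and Col4a2 encode the chains of the basement membrane network found in nearly all tissues. Col4a1 was at 601, 695 and 665 CPM in control and 518, 535 and 349 CPM in senescent libraries, and Col4a2 at 495, 593 and 558 against 450, 480 and 310 CPM. Neither gene overlapped between groups, yet senescent replicates 1 and 2 lay close to the lowest control library. Their log2 fold changes of -0.48 (SE 0.154, adjusted p = 0.0226) and -0.41 (SE 0.157, adjusted p = 0.046) were small and not firm. Without senescent replicate 3 they were -0.30 and -0.23, with adjusted p = 0.00026 and 0.0189. With the GC trend taken out of each library they were -0.25 and -0.11, with adjusted p = 0.000404 and 0.00542. Without control replicate 2, by contrast, adjusted p rose to 0.0733 and 0.135, and without control replicate 3 to 0.0631 and 0.108. For Col4a2 the call also ended without control replicate 1 (0.0512) and without senescent replicate 1 (0.0555). The exons of Col4a1 and Col4a2 share 22 bases at their starts on opposite strands, where reads of one cannot be told from those of the other if the strand was not used in counting.

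Col4a5 and Col4a6 fell much further and with little spread. Col4a5, whose loss in people causes a hereditary kidney disease, was at 443, 441 and 430 CPM in control and 103, 105 and 105 CPM in senescent libraries, a log2 fold change of -2.07 (SE 0.052, adjusted p = 3.18e-08). Col4a6 was at 49.9, 49.9 and 49.1 CPM in control and 7.9, 6.63 and 6.62 CPM in senescent libraries, a log2 fold change of -2.82 (SE 0.088, adjusted p = 1.05e-07). The groups were widely separated for both, and senescent replicate 3 lay with its group for both. The starts of the 2 genes are 1308 bases apart on chromosome X (Col4a6 from 141165403 to 141474076 on the minus strand, Col4a5 from 141475385 to 141689234 on the plus strand). The 120 bases that lead into each gene are shown because the pair share this short interval and fell together; GC content is 56.7% before Col4a5 and 55.0% before Col4a6.
Col4a5 (chrX:141475265-141475384, plus strand): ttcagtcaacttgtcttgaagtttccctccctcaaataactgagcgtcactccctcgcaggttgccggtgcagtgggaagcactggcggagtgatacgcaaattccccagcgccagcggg
Col4a6 (chrX:141474077-141474196, minus strand): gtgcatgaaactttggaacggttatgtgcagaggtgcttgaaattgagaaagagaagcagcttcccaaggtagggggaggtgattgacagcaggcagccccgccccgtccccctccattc

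The third pair was barely present. Col4a4 had 18, 18 and 10 counts in control and 24, 34 and 29 in senescent libraries and was not called (log2 fold change 0.46, 95% interval -0.17 to 1.08, adjusted p = 0.159). Col4a3, 71 bases away, had 1, 1 and 2 counts in control and 16, 12 and 23 in senescent libraries, a ratio of 9.23 (exact 95% interval 3.39 to 35.2, counting error only), and was left untested by the filter. Of its exon length, 5.65% is shared with C430014B12Rik on the opposite strand, which had a mean of 42.5 counts.

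The FACITs went both ways. Col12a1 and Col14a1 encode related collagens of the fibril surface. Col12a1 was at 2279, 2167 and 2140 CPM in control and 1506, 1491 and 1698 CPM in senescent libraries, a modest fall with a log2 fold change of -0.49 (SE 0.067, adjusted p = 0.000323). Col14a1 was at 59.2, 57.2 and 55.2 CPM in control and 8.89, 9.21 and 9.76 CPM in senescent libraries, a log2 fold change of -2.62 (SE 0.070, adjusted p = 4.11e-08). The libraries of Col14a1 held together within each group, 6.16-fold apart in means. Col16a1, a FACIT of skin and cartilage, was at 396, 489 and 461 CPM in control and 115, 126 and 67.8 CPM in senescent libraries, a log2 fold change of -2.13 (SE 0.217, adjusted p = 6.21e-05), with senescent replicate 3 again lowest.

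Col20a1 and Col22a1 rose. Col20a1, a little-studied FACIT, was at 1.2, 1.31 and 1.51 CPM in control and 7.18, 7.02 and 5.2 CPM in senescent libraries, a log2 fold change of 2.27 (SE 0.167, adjusted p = 9.79e-06). Its exons share 79 bases (1.88% of its length) on the same strand with 9230112E08Rik, which had a mean of 841 counts, so a small part of its reads may belong there. Col22a1, known at the junction of muscle and tendon, had 2, 3 and 3 counts in control and 57, 92 and 58 in senescent libraries. The ratio was 18.7 (exact 95% interval 9.33 to 44.0, counting error only). Col22a1 was called higher (adjusted p = 3.2e-05 in edgeR's quasi-likelihood test), but it met the filter on low counts through its senescent libraries. Col19a1 had 0 counts in every control library and 5, 15 and 12 in senescent ones; against a floor of 3 counts in each control library its mean was at least 2.46-fold higher, and it was not tested.

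Members of smaller classes were mostly low. Of the multiplexins, which are cut to release endostatin-like fragments, Col15a1 fell from 14.4, 15.4 and 16.1 CPM to 7.02, 6.32 and 4.93 CPM, a log2 fold change of -1.33 (SE 0.133, adjusted p = 5.44e-05). Col18a1, at 26.9, 35.6 and 31.5 CPM against 23.6, 26 and 15.1 CPM, was called lower with a value of -0.54 (SE 0.197, adjusted p = 0.0383). The separation of Col18a1 between groups was narrow: its value was -0.33 without senescent replicate 3, and its adjusted p was 0.127 without control replicate 2, 0.0871 without control replicate 3 and 0.0543 without senescent replicate 1.

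Col28a1, which encodes a collagen known from nerve and skin, had the highest level, per kilobase as in CPM, of the members called higher. It was at 31.7, 31.03 and 29.6 CPM in control and 78.3, 77.6 and 81.2 CPM in senescent libraries, a log2 fold change of 1.36 (SE 0.058, adjusted p = 4.14e-07). The groups were 2.57-fold apart and replicates within each were close. Col7a1, the anchoring fibril that ties the epidermis to the dermis, was called higher under 2-fold, at 5.85, 6.94 and 6.03 against 10.8, 13.2 and 7.32 CPM (log2 fold change 0.73, SE 0.204, adjusted p = 0.0127). Senescent replicate 3 came nearest to the control libraries of Col7a1, and without it the value was 0.94.

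Of the transmembrane collagens, which stay anchored in the cell membrane until they are shed, Col23a1 was called higher at 2.49, 2.39 and 1.86 CPM in control and 5.14, 4.29 and 4.95 CPM in senescent libraries (log2 fold change 1.09, SE 0.139, adjusted p = 0.000218; 0.97 without control replicate 3). Col17a1, a hemidesmosome protein of keratinocytes, and Col25a1, a collagen of neurons, were near 1 CPM or below and not called, with intervals of -0.41 to 0.24 and -0.25 to 0.74. Col13a1 had 0 counts in control libraries and 2, 12 and 2 in senescent ones, of which 2 libraries lay under the floor of 3 counts, so no fold is given. Col26a1 had 2 counts in control and 5 in senescent libraries in total.

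The type VIII chains were not called, while most chains at a like level fell. Type VIII collagen forms a short-chain network in vessel walls and in the cornea. Col8a1 was at 907, 916 and 909 CPM in control and 916, 930 and 1013 CPM in senescent libraries, a log2 fold change of 0.07 (95% interval -0.07 to 0.20, adjusted p = 0.332). Its partner Col8a2 was at 25.04, 27.8 and 26.8 against 27.9, 27.4 and 22.4 CPM, a log2 fold change of -0.04 (95% interval -0.27 to 0.19, adjusted p = 0.748). With the GC trend taken out of each library Col8a2 had a value of 0.25 (adjusted p = 0.00263).

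These changes altered the make-up of the collagen transcripts. All 36 members together took 3.04, 3.30 and 3.24% of the counts in control libraries and 1.13, 1.15 and 0.966% in senescent ones, a share 2.95-fold lower in the mean (two-sided exact permutation p = 0.1, the smallest that 3 against 3 can give). The 8 cartilage collagens left out by the rule fell further, from 0.555% to 0.0521% of counts in the mean. The log2 ratio of non-cartilage to cartilage collagen counts rose from 2.53 ± 0.0179 (SD, n = 3) to 4.38 ± 0.0138 (exact permutation p = 0.1).

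Counted per kilobase, so that long and short genes can be compared, 5 genes (Col6a1, Col1a1, Col1a2, Col5a2 and Col3a1) made up 69.5% of the non-cartilage collagen pool in control MAFs and 51.2% in senescent MAFs. The type VI chains together went from 31.7% to 10.8% of the pool, and the type I chains from 27.5% to 19.4%. Col6a1 dropped from the largest share (21.7% ± 0.19) to the seventh (6.38% ± 0.384). Col5a2 moved from the fourth to the first place (10.6% ± 0.383 to 17.4% ± 0.5), although its own level fell 2.04-fold, and Col8a1 from the seventh to the second (4.32% ± 0.218 to 15.3% ± 2.52). In senescent replicate 3 Col8a1 took 18.2%, ahead of Col5a2 with 17.8%; in senescent replicates 1 and 2 Col5a2 was ahead, so the order of these neighbours did not differ beyond the spread. Shares of a pool sum to a whole, so a rise in share is no rise in level. Shares and ranks also depend on the deposited gene lengths.

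**Figure D3:**
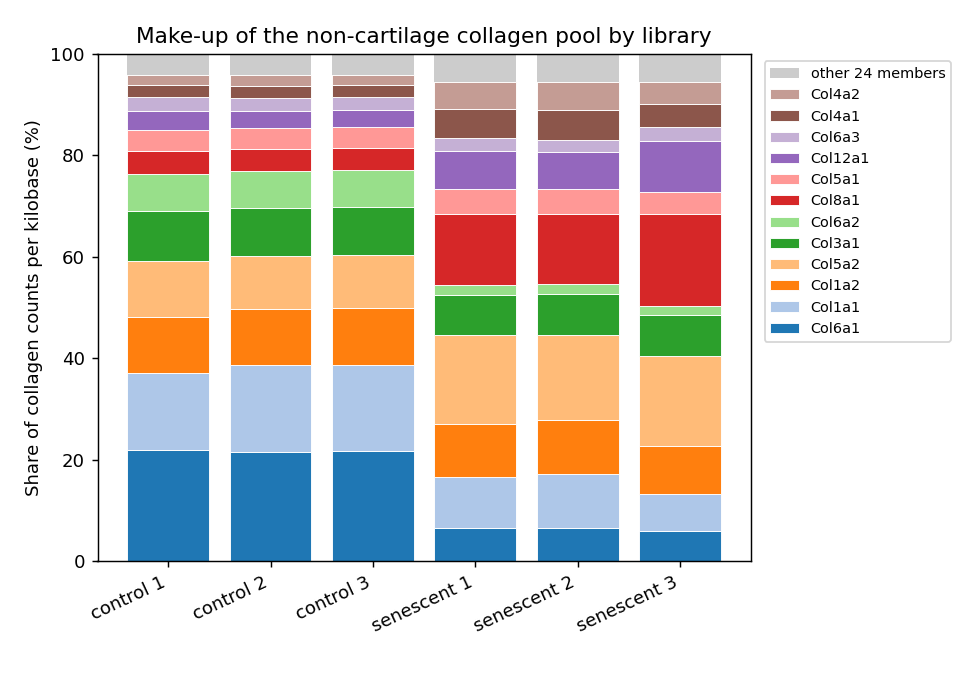
Make-up of the non-cartilage collagen counts per kilobase in each library, as stacked bars from 0 to 100%, with the 12 largest members in control coloured and the other 24 in grey. The lowest segment, Col6a1, shrinks from 21.7% to 6.38% in the mean, and the Col8a1 segment widens from 4.32% to 15.3%.

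Pairs of chains that assemble together, or that are abundant members of 1 class, were then compared within each library, where library scaling cancels. Of 10 pairs, 9 had ratios that did not overlap between groups, each with a two-sided exact permutation p = 0.1, the smallest possible, and an adjusted p = 0.111 over the 10 pairs, so that no single pair could pass 0.05. How often ratios of other gene pairs separate was not counted. Single genes did so in 75.3% of all genes tested, so the 9 of 10 is a description. The ratio of Col1a1 to Col1a2 per kilobase was 1.36, 1.53 and 1.48 in control and 0.955, 1.00 and 0.769 in senescent libraries. Control libraries thus held more Col1a1 than Col1a2 per kilobase, and senescent libraries about as much or less. In CPM, Col1a2 was above Col1a1 in every library. The control order per kilobase therefore rests on the deposited gene lengths, 6563 bases for Col1a1 and 12136 for Col1a2. The shift of the ratio between groups does not depend on those lengths. In type V, the ratio of Col5a1 to Col5a2 differed by -0.56 on the log2 scale, while Col5a3 gained on Col5a1 by 1.54, from 0.0295, 0.0294 and 0.0279 to 0.0833, 0.0859 and 0.0836 per Col5a1.

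In type VI the ratio of Col6a3 to Col6a1 rose from 0.127, 0.12 and 0.118 to 0.365, 0.366 and 0.439, a log2 difference of 1.68. That of Col6a1 to Col6a2 changed little, from 3.03, 2.89 and 2.95 to 3.25, 3.22 and 3.38, a difference of 0.15 on the log2 scale. Col4a1 and Col4a2 were the most closely matched pair by difference, at -0.08 on the log2 scale, whereas Col4a5 fell against Col4a1 by far more (-1.56). The ratio of Col12a1 to Col14a1 went from 17.7, 17.4 and 17.8 to 78.0, 74.5 and 80.1, the largest shift of the 10 at 2.13. Col8a1 to Col8a2 was the pair whose groups overlapped (difference 0.11, exact permutation p = 0.7), and without senescent replicate 3 its difference was -0.04.

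**Figure D4:**
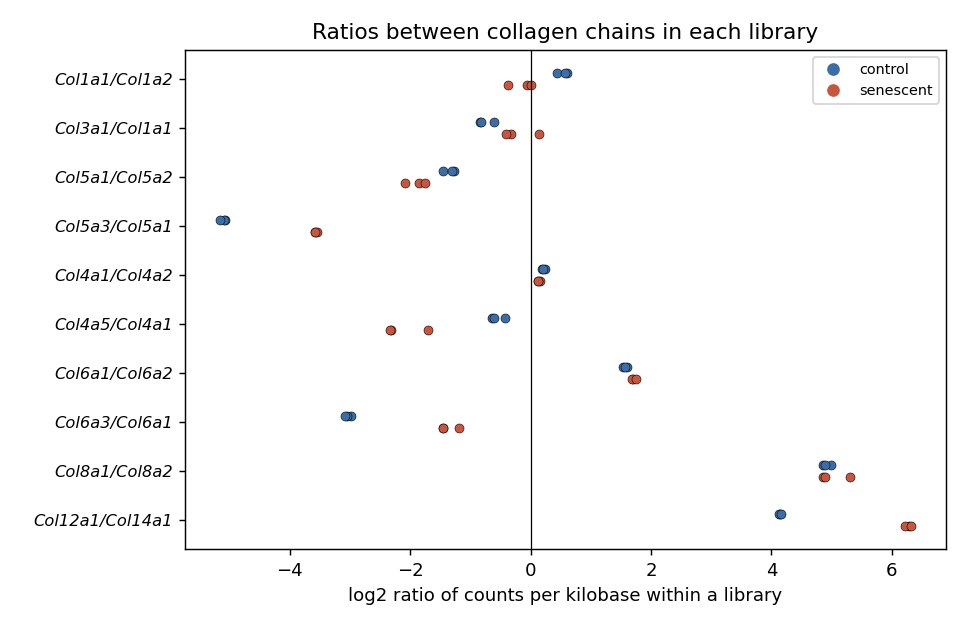
Log2 ratio of counts per kilobase for 10 pairs of chains in each library, control in blue and senescent in red. The groups are separate for 9 pairs and overlap for Col8a1 to Col8a2; the widest separation is that of Col12a1 to Col14a1, 2.13 on the log2 scale.

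A collagen chain is hydroxylated and glycosylated in the endoplasmic reticulum, folded with the help of chaperones, exported in large carriers, trimmed of its propeptides and cross-linked outside the cell; cells then hold it by receptors and take it apart with proteases. Of 70 genes listed for these steps, 64 were tested, with 39 called lower and 18 higher, against 34.1% and 36.2% of all genes. The enzymes that hydroxylate and glycosylate the chains moved one way: all 15 were called lower, 8 of them past 2-fold, with a median log2 fold change of -1.07. The largest changes among those with a mean of at least 100 counts were those of the lysyl hydroxylase Plod1 (293 ± 9.75 to 100.1 ± 15.9 CPM, log2 fold change -1.55) and the prolyl hydroxylase subunits P4ha3 (73.0 to 26.4 CPM, -1.47) and P4ha2 (340.1 to 135 CPM, -1.33). Adjusted p was 9.53e-06, 1.97e-06 and 5.57e-06 for these 3.

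In chaperoning and export, 7 of 15 were called lower and 5 higher, with a median of -0.01. Mia2 (0.0203 CPM in control), among the 5, met the filter on low counts through its senescent libraries. Serpinh1, the collagen-specific chaperone HSP47, fell from 2111 ± 185 to 664 ± 109 CPM (log2 fold change -1.67, adjusted p = 1.19e-05), and so did Fkbp10 (-1.14) and the collagen-binding glycoprotein Sparc (-1.10). Tmem38b (0.73), Klhl12 (0.30) and Fkbp14 (0.28) were the largest changes upward above 100 mean counts, each under 2-fold, and 2 genes of this list were called higher when control replicate 2 or control replicate 3 was left out. Of 7 tested genes of propeptide removal, 5 were called lower and 1 higher (2 higher when senescent replicate 3 or any 1 control library was left out). The enhancer Pcolce fell (log2 fold change -1.07), as did Bmp1 (-0.76) and Adamts2 (-0.51), while the related protease Tll1 rose from 34.2 ± 1.51 to 121 ± 13.3 CPM (1.82, adjusted p = 9.69e-07).

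Of 10 genes of cross-linking and fibril assembly, 5 were called lower and 3 higher. Loxl4 (log2 fold change -2.09) and Loxl1 (-1.21), lysyl oxidases that cross-link collagen or elastin, and the fibril proteoglycan Fmod (-1.84) fell most. The fibril proteoglycan Dcn rose from 56.6 ± 0.377 to 643 ± 65.2 CPM (3.50, adjusted p = 3.18e-08), Tnxb by 0.98 and Lum by 0.85. Members of the same family of small proteoglycans therefore went in opposite directions. Receptors and uptake genes were called higher in 6 of 9 and lower in 3, with a median of 0.73. Among them the integrin subunit Itga2 rose from 1.97 ± 0.227 to 22.1 ± 2.04 CPM (3.48, adjusted p = 1.68e-07), Itgb1 by 0.81 and the uptake receptor Mrc2 by 0.78, and Itga10 (-2.07), Ddr1 (-1.88) and Itga1 (-1.18) fell. Lair1 (0.0605 CPM in control), also called higher, met the filter on low counts through its senescent libraries.

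Genes of collagen breakdown were called lower in 4 of 8 and higher in 3. Of those 3, Mmp13 and Mmp8 (0.134 and 0.0245 CPM in control) met the filter on low counts through their senescent libraries, so their calls are a description. The collagenase Mmp13 rose from 0.134 ± 0.0413 to 16.4 ± 2.54 CPM (log2 fold change 6.93, adjusted p = 1.05e-07) and Mmp9 from 0.308 to 3.52 CPM (3.48). The abundant Mmp14 (-0.89), Pepd (-1.03), which recycles proline from collagen fragments, and Mmp2 (-0.27) fell.

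**Figure D5:**
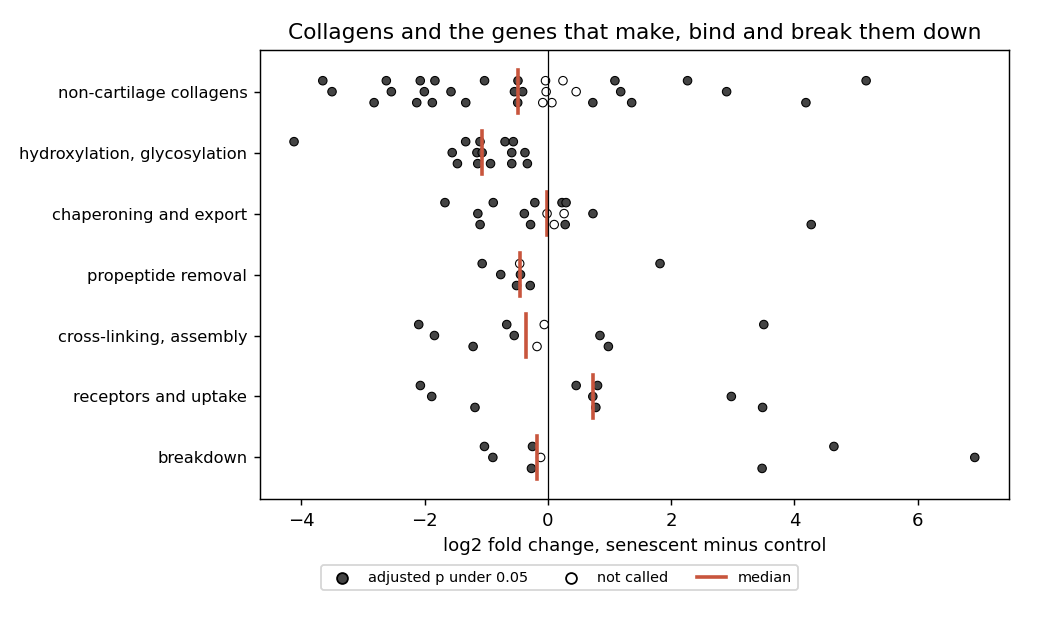
Log2 fold change (senescent minus control) of the 31 tested collagens and of the 64 tested genes of 6 lists, 1 point per gene, filled where called, with the median of each list as a red bar. All 15 genes of hydroxylation and glycosylation lie left of 0, and the median of receptors and uptake lies at 0.73.

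Markers of cell types that ear tissue could hold were read in the same libraries. The counts below are to be read against all genes tested, of which 34.1% were called lower and 36.2% higher. Past 2-fold lower at an unadjusted p under 0.05 were 12.3%. Markers of chondrocytes other than collagens (Acan, Sox9, Comp, Matn1, Matn3, Hapln1, Cnmd and Epyc) fell with the collagens: 7 of 8 were tested, all 7 were called lower and past 2-fold, and their summed level was 2598 to 2668 CPM in control and 233 to 245 CPM in senescent libraries. Of 7 tested fibroblast markers, 4 were called lower and 3 higher. Past 2-fold were 0 lower and 3 higher (Thy1, Dpt and Fap, at 1.47, 3.88 and 3.94), where 17.8% of all genes were past 2-fold higher. The summed level of that list, of which Vim was the largest part, was 7529 to 7826 CPM in control and 4637 to 4922 CPM in senescent libraries. The part of either in the fall of the collagens was not tested, and in bulk RNA fewer cells of a type and less RNA per cell cannot be told apart. Pericyte and smooth muscle markers were called higher in 6 of 8, though Acta2 and Cnn1, those with the highest counts, were not called and the summed level was 1189 to 1257 CPM in control and 1120 to 1372 CPM in senescent libraries. Kcnj8 and Abcc9 (0 and 0.00681 CPM in control), among the 6, met the filter on low counts through their senescent libraries. The 6 of 8 is therefore a description. Of the tested endothelial and macrophage markers, 5 of 5 in each list were called higher, at summed levels of 8.30 to 8.85 and 14.1 to 16.6 CPM in senescent libraries against 2.55 to 2.96 and 5.69 to 6.48 CPM in control. Past 2-fold higher were 4 and 3 of them, where 31.3% of all genes under 10 CPM were. Some, such as Cdh5, Vwf and Itgam (0.104, 0.108 and 0.00681 CPM in control), met the filter on low counts through their senescent libraries. Those counts are therefore a description. Summed levels in control against senescent libraries were 16.3 to 17.02 against 13.9 to 15.6 CPM for keratinocyte markers and 17.7 to 22.8 against 17.4 to 30.3 CPM for skeletal muscle markers. They were 29.2 to 29.6 against 12.4 to 14.3 CPM for Schwann cell and melanocyte markers and 98.8 to 104 against 55.1 to 61.1 CPM for adipocyte markers. Each of these sums was below those of the fibroblast and chondrocyte lists in both groups. No marker in any of the 9 lists was at 0 in all 6 libraries.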

How the data were processed

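Total RNA (200 ng per sample, TruSeq Stranded mRNA) of 3 control and 3 senescent MAF samples was sequenced, and groups and replicate numbers were taken from the sample labels. Paired reads had been aligned by the authors (STAR, mm10, MAPRSeq pipeline), who deposited Subread counts per gene, not normalized. The strand setting, the annotation release and the treatment of multi-mapped reads are not given in the sources used here. The deposited table also gives a gene length, used for values per kilobase. How that length was derived is not given in the sources used here. Levels, ranks and chain ratios per kilobase depend on it, while the change of a gene or of a chain ratio between groups does not.

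From the deposited counts, genes were filtered by filterByExpr (17589 of 43346 kept), scaled by TMM and tested by the quasi-likelihood method of edgeR (version 4.0.16 under R 4.3.3; robust, group as the only term, two-sided, Benjamini-Hochberg over all tested genes). The SE of a log2 fold change is its size over the square root of F. The script was tested on simulated data. Ratios and shares were compared by exact permutation tests. Intervals of low counts and floors of 3 counts cover counting error only. Libraries are separate samples by their labels; whether they came from separate animals is not stated, so p-values measure the spread between these samples.

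The members and the lists of pathway and marker genes were chosen with earlier results of these data known. Per-library values are given for members past 2-fold with a mean count of at least 100 and for the 5 members highest per kilobase in control; other members are given as far as each class needs. From each pathway list, up to 3 genes per direction were named by size of change among those called with a mean count of at least 100. GC content is that of the longest GENCODE M21 transcript, and upstream sequences are from RefSeq. Alternatives were other scalings, filters and tests, a replicate block, leaving out each library and, added after seeing the data, removal of the GC trend. Same-numbered samples did not deviate together (r = -0.145, 0.135 and -0.12), though so few correlations cannot exclude a pairing.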

Additional observations from a re-analysis of the deposited data

How the results depend on the processing

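The 17 calls lost under an alternative in which the gene was tested all belonged to Col4a1 (3 of 14 alternatives), Col4a2 (8) and Col18a1 (6). Members called lower numbered 14 to 17 over all alternatives and members past 2-fold lower 12 or 13. With the replicate block the counts of members called (8 higher, 17 lower) and past 2-fold (7 and 13) were those of the fit without it. Whether the replicate numbers pair the samples is not stated by the labels. Requiring at least 10 counts in every library left 27 members to test, with 4 called higher and 3 past 2-fold higher, because members nearly absent in control drop out by construction. Without a filter, 11 were called higher, Col4a3, Col13a1 and Col19a1 among them. Leaving out 1 library gave 8 or 9 called higher and 7 or 8 past 2-fold higher. With the GC trend removed, 10 were called higher and 8 were past 2-fold higher.

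Of the pathway lists, chaperoning and export had 2 to 6 genes called higher when 1 library was left out, propeptide removal 1 or 2, and 3 with no filter. Collagen breakdown had 5 called higher with no filter and 0 of 5 tested with at least 10 counts in every library. Small changes turned sign: Col5a3 was 0.0505 with scaling by library size alone, 0.0218 with at least 10 counts, 0.290 with the GC trend removed and -0.137 to 0.132 when 1 library was left out. Col8a2 was 0.0403, 0.0115, 0.254 and -0.0890 to 0.0636 in the same order, and Col17a1 was 0.169 with the GC trend removed. The log2 difference of the Col8a1 to Col8a2 ratio ranged from -0.0385 (without senescent replicate 3) to 0.190 when 1 library was left out. The cause was not tested. Depth limits the members under 1 CPM, whose ratios have wide counting intervals.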
